A study of Mus musculus with 4 samples.

Results

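Chemokine receptors are G protein-coupled receptors that steer leukocytes along gradients of small secreted proteins. In the thymus, CXCR4 and CCR9 are known from the cortex, CCR7 draws positively selected cells into the medulla, and CCR4 appears around that step. CCR6, CXCR3, CXCR5 and CCR8 are better known from regulatory T cells (Treg) and effector cells that settle in inflamed or lymphoid tissue. The genes described here are Ccr2, Ccr4, Ccr6, Ccr7, Ccr8, Ccr9, Cxcr3, Cxcr4, Cxcr5 and Cxcr6. They were taken by name, and carry 18 of 45037 probe sets, or 10 of 18193 genes, on the array.

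RNA of sorted CD4+ CD8- thymocytes from female mice of 6 to 8 weeks was measured on Affymetrix mouse 430 2.0 arrays, 1 array per population. Foxp3 is the X-linked transcription factor gene of Treg, and all mice carried a GFP-marked Foxp3 allele. Foxp3-fusion cells were GFP+ cells of homozygous Foxp3(gfp/gfp) mice, which make a GFP-Foxp3 fusion protein. Foxp3-null cells were GFP+ cells of Foxp3(gfpko/wt) mice, heterozygous for a GFP-marked knockout allele and a wild-type one, so these hosts also have cells with normal Foxp3. GFP- CD25+ and GFP- CD25- cells came from Foxp3(gfp/gfp) mice, CD25 being the interleukin-2 receptor alpha chain encoded by Il2ra. From 129/Sv, the Foxp3(gfpko/wt) mice were 2 backcross generations into C57BL/6 and the other mice 4 to 6, so genotype, backcross and array cannot be told apart. The titles name no CD25 gate for GFP+ cells, and a GFP gate does not separate newly formed Treg from mature ones that re-enter the thymus. The labels used here do not state how many animals each array stands for.

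With 1 array per population no difference has an error, a p-value or a replicate check. The differences below separate arrays, and the number of arrays limits their precision. Values are log2 signals after quantile normalization, which gives the arrays 1 common distribution. A floor of 4.02 log2 was set from genes silent in T cells. Signals under it have no order, a difference with 1 side there is written as "at least", and with both sides there it is left out. A difference was counted at 2-fold. In bulk RNA, fewer cells with a transcript and less transcript per cell cannot be told apart.

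Foxp3, the gene altered in these mice, read 8.82 log2 in Foxp3-fusion cells, 7.27 in Foxp3-null cells, 2.88 in GFP- CD25+ cells and 2.76 in GFP- CD25- cells. The sources used here do not say whether its probe set lies within the disrupted sequence, so the value in Foxp3-null cells does not check the knockout. Il2ra, used in the sort, read 10.35, 9.11, 7.85 and 3.62 log2 in the order of the Foxp3 values, the last under the floor. All 7 measured CD4 T cell markers were above the floor on the 4 arrays. Cd4 read 8.37 to 9.37 log2 and Cd3e 9.17 to 10.19. Foxp3-fusion cells read 4.18-fold below GFP- CD25- cells for Thy1 and 2.77-fold above them for Cd3d. Of the CD8 T cell markers, Cd8a read 4.42 to 4.78 log2, and Cd8b1 and Prf1 were under the floor. Eomes read 4.74 to 6.19 log2. Runx3 was under the floor in Foxp3-null cells alone and reached 5.50 log2. The gap between the 3' and 5' actin control probe sets was 5.02 log2 on the Foxp3-fusion array, 7.10 on the Foxp3-null array, 9.29 on the GFP- CD25+ array and 8.37 on the GFP- CD25- array. For the Gapdh control probe sets the gap was 4.60, 4.93, 6.51 and 6.56 log2 in the same order of arrays. The part of such 5' loss in the values below was not tested. Scaling mattered too: without quantile normalization the 90th percentiles ran from 7.54 to 8.16 log2. The median over all genes for Foxp3-fusion over Foxp3-null cells was -0.14 log2 after normalization and 0.21 as deposited. In the other 5 comparisons the median moved by less, for instance to 0.17 as deposited against -0.09 for Foxp3-fusion over GFP- CD25+ cells. Deposited values are therefore given where they end or add a call described below.

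Of the 10 genes, 4 were above the floor on every array (Ccr2, Ccr7, Ccr9 and Cxcr3) and 3 on some arrays (Ccr6, Cxcr5 and Cxcr6). The other 3 (Ccr4, Ccr8 and Cxcr4) were under it on all arrays. The plot of the 10 genes by population shows 3 groups. Ccr6, Cxcr3 and Cxcr5 were highest in Foxp3-fusion cells. Ccr9 was lowest there and highest in GFP- CD25- cells, and Ccr7, Ccr2 and Cxcr6 had neither pattern.

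**Figure D1:**
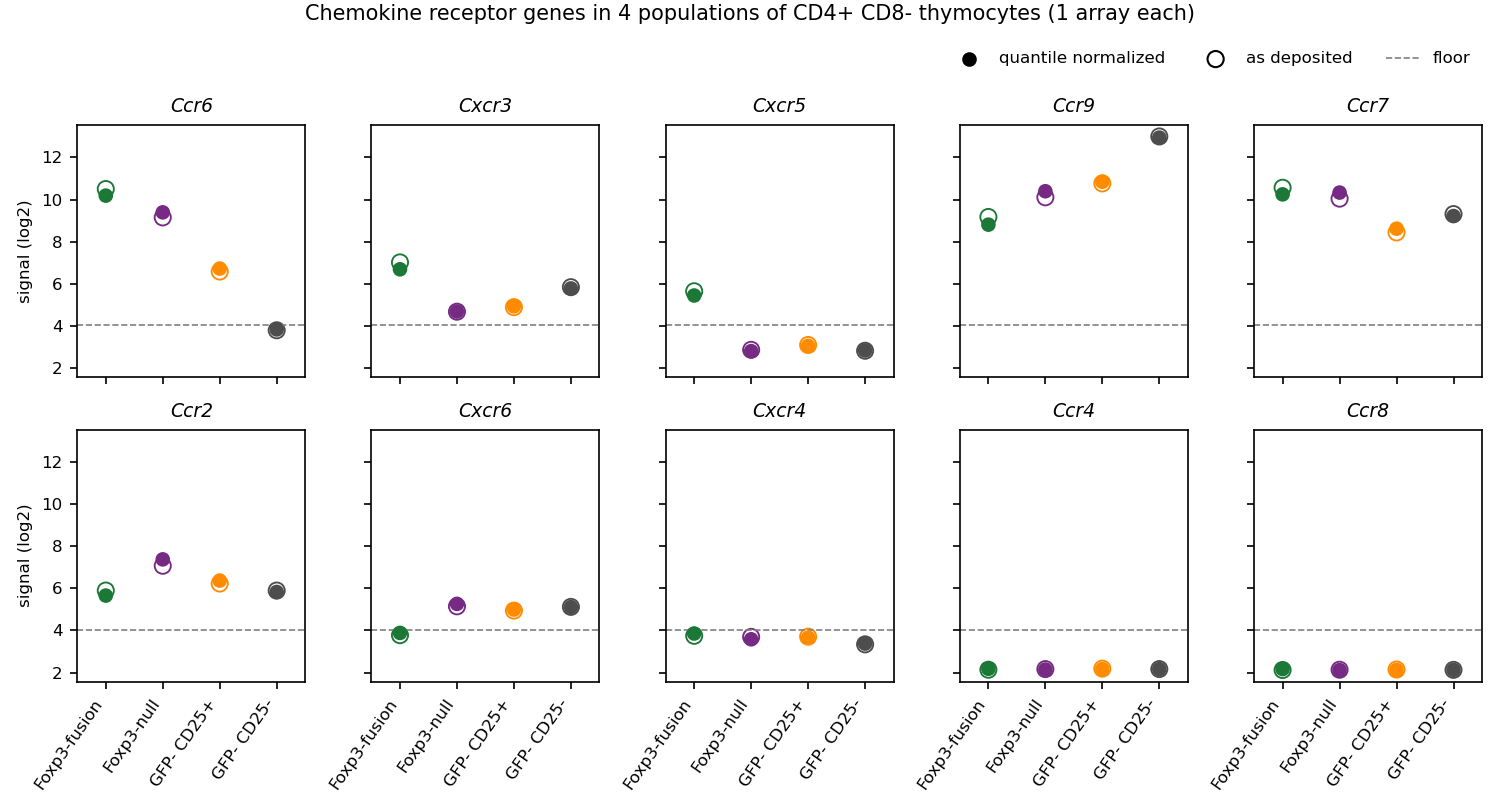
Signal (log2) of the main probe set of each of the 10 genes in Foxp3-fusion, Foxp3-null, GFP- CD25+ and GFP- CD25- cells; filled points are quantile normalized values, open circles deposited values, and the dashed line is the floor of 4.02 log2. Ccr6 steps down from left to right, Ccr9 steps up, and Cxcr5 is above the floor in Foxp3-fusion cells alone.

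Ccr6 encodes the receptor for CCL20 and is known from B cells, interleukin-17-producing T cells and Treg, including Treg that return to the thymus. Its signal was 10.19 log2 in Foxp3-fusion cells, 9.39 in Foxp3-null cells, 6.72 in GFP- CD25+ cells and 3.83, under the floor, in GFP- CD25- cells. The order was the same on the deposited scale, and each neighbouring step after the first exceeded 2-fold. Foxp3-fusion cells exceeded GFP- CD25- cells in Ccr6 by at least 71.8-fold, and Foxp3-null cells exceeded them by at least 41.4-fold. GFP- CD25+ cells exceeded GFP- CD25- cells by at least 6.49-fold. Among genes above the floor on both arrays, the difference of 11.1-fold between Foxp3-fusion and GFP- CD25+ cells was the 8th largest upward of 7583. That between Foxp3-null and GFP- CD25+ cells, 6.37-fold, was the 15th of 7796.

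The difference in Ccr6 between the 2 GFP+ populations was smaller, Foxp3-fusion cells reading 1.74-fold above Foxp3-null cells. On the deposited scale it was 2.55-fold. Ccr6 has a single probe set, so no second reading was to be had. Of 7 measured B cell markers, 2 were above the floor on any array, Ms4a1 and Cd79b. The summed signal of all 7 was 62.6 units in Foxp3-fusion cells, 92.4 in Foxp3-null cells, 71.4 in GFP- CD25+ cells and 60.5 in GFP- CD25- cells. Those sums include the markers under the floor. Ms4a1 read 5.63 log2 in Foxp3-null cells, 4.99 in GFP- CD25+ cells and 4.51 in GFP- CD25- cells. It was under the floor in Foxp3-fusion cells, where Cd79b read 4.11 log2. Cd79a and Pax5, defining genes of B cells, were under the floor on all 4 arrays. The part of such cells in the Ccr6 signal was not tested.

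Cxcr3 encodes the receptor for CXCL9, CXCL10 and CXCL11 and marks type 1 helper cells, CD8 effector cells and a subset of Treg. It read 6.69 log2 in Foxp3-fusion cells, 4.68 in Foxp3-null cells, 4.93 in GFP- CD25+ cells and 5.78 in GFP- CD25- cells. Foxp3-fusion cells stood highest, and Foxp3-null and GFP- CD25+ cells were under 2-fold apart near the floor. Against Foxp3-null cells, Cxcr3 in Foxp3-fusion cells was 4.02-fold higher, the 108th largest difference upward of 7544 genes. The difference from GFP- CD25+ cells was 3.38-fold in the same direction. Foxp3-null cells lay 2.14-fold below GFP- CD25- cells, whereas Foxp3-fusion cells lay 1.88-fold above them, or 2.26-fold with deposited values. The difference of Foxp3-null from GFP- CD25- cells, -1.10 log2, was -0.70 log2 with median centring, under 2-fold. With a floor 1 log2 unit higher Foxp3-null cells lay at least 0.76 log2 lower, a bound that does not reach 2-fold. For Cxcr3 the 2 GFP+ populations thus lay on opposite sides of the GFP- CD25- population, unlike Ccr6, with the Foxp3-fusion side under 2-fold after normalization.

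Cxcr5 encodes the CXCL13 receptor, which brings B cells, follicular helper cells and follicular Treg into B cell follicles. Its signal was 5.44 log2 in Foxp3-fusion cells, and 2.80 in Foxp3-null, 3.05 in GFP- CD25+ and 2.83 in GFP- CD25- cells, all 3 under the floor. Foxp3-fusion cells exceeded each other population by at least 2.67-fold. The bound comes from the floor and is the same in all 3 comparisons. It was 0.83 log2 with median centring and 0.42 log2 with a floor 1 log2 unit higher, both under 2-fold. The B cell marker Cd79b was also above the floor in Foxp3-fusion cells alone, at 4.11 log2, while Ms4a1 was under it there and above it on the other 3 arrays. The part of other cells in the Cxcr5 signal was not tested.

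Ccr6 and Cxcr3 are shown with their upstream sequence because both were highest in Foxp3-fusion cells. Cxcr5 was also highest there, but it and Ccr7 had no listed start in the sources used here. The 250 bases before each start listed in RefSeq (GRCm38.p6) are written 5′ to 3′ along the gene. Capitals mark matches to STAT (TTCNNNGAA), NF-kappaB (GGGNNTTCC, or GGAANNCCC on the other strand) or RUNX (TGTGGT, or ACCACA) motifs. The first Ccr6 start, on the plus strand, has chr17:8235793-8236042, the second chr17:8242276-8242525, and Cxcr3, on the minus strand, has chrX:101734148-101734397.
Ccr6, first start: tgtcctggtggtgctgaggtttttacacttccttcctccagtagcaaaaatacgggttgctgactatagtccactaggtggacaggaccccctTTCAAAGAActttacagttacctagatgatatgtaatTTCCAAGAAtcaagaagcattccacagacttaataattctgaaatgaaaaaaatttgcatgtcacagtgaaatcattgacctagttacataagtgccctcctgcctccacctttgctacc
Ccr6, second start: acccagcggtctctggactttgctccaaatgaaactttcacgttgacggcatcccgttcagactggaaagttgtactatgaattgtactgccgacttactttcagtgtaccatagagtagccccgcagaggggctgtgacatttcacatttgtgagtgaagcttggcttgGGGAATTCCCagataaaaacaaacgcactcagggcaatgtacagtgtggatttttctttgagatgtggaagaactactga
Cxcr3: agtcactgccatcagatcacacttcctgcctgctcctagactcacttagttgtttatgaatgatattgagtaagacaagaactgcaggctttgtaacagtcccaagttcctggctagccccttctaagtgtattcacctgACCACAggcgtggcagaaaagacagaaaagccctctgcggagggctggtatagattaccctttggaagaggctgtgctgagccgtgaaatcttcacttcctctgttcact

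The first Ccr6 window holds 2 STAT matches, starting 157 and 120 bases before the start, and the second holds 2 overlapping NF-kappaB matches, 80 and 79 bases before it. The Cxcr3 window holds 1 RUNX match 110 bases before the start, and the window of Cxcr6, which was lowest in Foxp3-fusion cells, holds the other one among the 9, 10 bases before the start. Both strands were searched over 9 windows of 8 of the 10 genes. A STAT match occurred in 7.02% of all 32851 windows of this length, an NF-kappaB match in 4.98% and a RUNX match in 4614 of the 32851. A forkhead motif (TGTTTAC, or GTAAACA) was present in 0 of the 9 windows and in 3.17% of all windows. An AP-1 motif (TGANTCA) was present in 1, that of Ccr4, and in 6.75% of all. An E-box (CANNTG) was found in 6 of the 9 and in 66.2% of all, and is left in lower case. These are matches of letters, not binding sites.

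Ccr9 encodes the receptor for CCL25, a chemokine of thymic epithelium and small intestine. It is carried by most immature thymocytes and lost late in maturation. Its signal was 8.81 log2 in Foxp3-fusion cells, 10.39 in Foxp3-null cells, 10.85 in GFP- CD25+ cells and 12.94 in GFP- CD25- cells. It thus ran opposite to Ccr6 over the 4 populations, with only Foxp3-null and GFP- CD25+ cells under 2-fold apart.

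Ccr9 was 17.6-fold lower in Foxp3-fusion than in GFP- CD25- cells, the 6th largest difference downward of 7685 genes above the floor on both arrays. It was 5.85-fold lower in Foxp3-null and 4.28-fold lower in GFP- CD25+ than in GFP- CD25- cells. The level in Foxp3-fusion cells was 4.11-fold below that of GFP- CD25+ cells. It was 3.01-fold below that of Foxp3-null cells, or 1.91-fold on the deposited scale, which is under 2-fold.

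Ccr9 offers an internal check, since 4 of its 5 probe sets were above the floor on every array. The main one, whose ID marks possible matches to other transcripts, was joined by probe sets reading 6.17, 7.95, 7.64 and 9.82 log2, then 5.16, 6.24, 5.64 and 8.70, and 5.42, 6.24, 6.58 and 7.07, each in the order Foxp3-fusion, Foxp3-null, GFP- CD25+ and GFP- CD25- cells. All 4 were lowest in Foxp3-fusion and highest in GFP- CD25- cells. For Foxp3-fusion over GFP- CD25- cells they ranged from -4.14 to -1.65 log2, all past 2-fold, and for Foxp3-fusion over Foxp3-null cells from -1.78 to -0.82 log2, 3 of them past 2-fold. Between Foxp3-null and GFP- CD25+ cells 2 were higher and 2 lower, so the order of these 2 populations was not settled. The remaining probe set stayed under the floor.

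**Figure D2:**
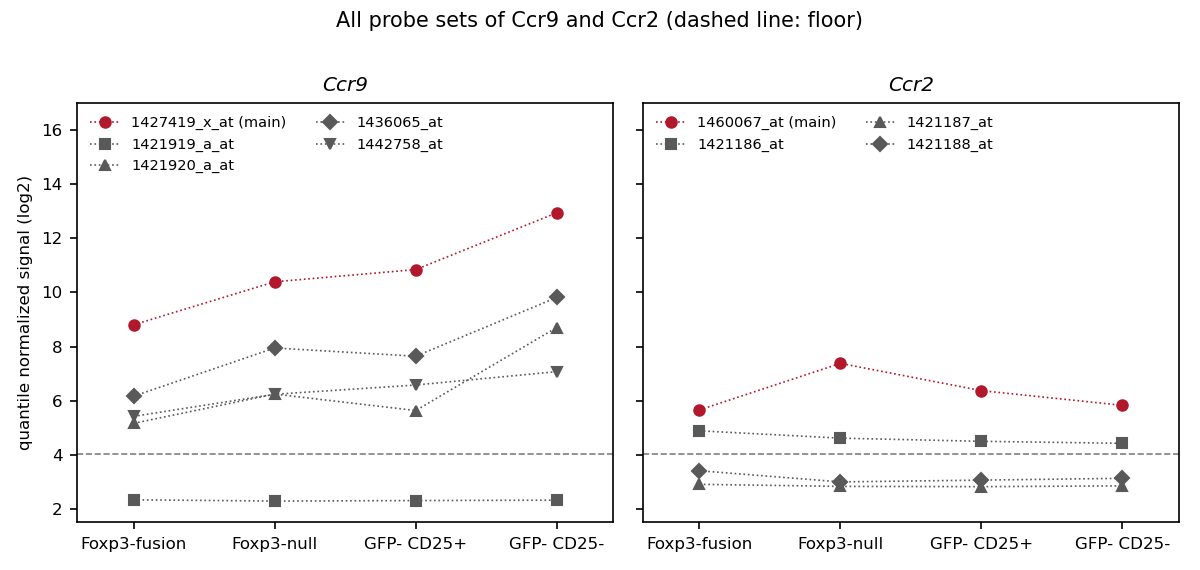
Quantile normalized signal (log2) of all probe sets of Ccr9 (left) and Ccr2 (right) in the 4 populations, the main probe set in red; dotted lines join the readings of 1 probe set and the dashed line is the floor. The 4 Ccr9 probe sets above the floor are all lowest in Foxp3-fusion cells, whereas the second Ccr2 probe set above the floor lacks the peak of the main one in Foxp3-null cells.

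Ccr7 encodes the receptor for CCL19 and CCL21, through which thymocytes enter the medulla and T cells enter lymph nodes. It read 10.24 log2 in Foxp3-fusion cells, 10.33 in Foxp3-null cells, 8.62 in GFP- CD25+ cells and 9.22 in GFP- CD25- cells. Both GFP+ populations were above both GFP- populations. Relative to GFP- CD25+ cells, Ccr7 was 3.09-fold higher in Foxp3-fusion cells and 3.29-fold higher in Foxp3-null cells. Against GFP- CD25- cells it was 2.04-fold higher in Foxp3-fusion cells. In Foxp3-null cells it was 2.17-fold higher than in GFP- CD25- cells, or 1.66-fold with deposited values. The difference between the 2 GFP+ populations was -0.09 log2 after normalization and 0.52 log2 as deposited, so its sign depends on the scaling. GFP- CD25+ cells lay 1.52-fold below GFP- CD25- cells.

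Ccr2 encodes the receptor for CCL2 and related chemokines and is known from monocytes and activated T cells. Its main probe set read 5.66 log2 in Foxp3-fusion cells, 7.38 in Foxp3-null cells, 6.37 in GFP- CD25+ cells and 5.83 in GFP- CD25- cells. It was highest in Foxp3-null cells, 2.93-fold above GFP- CD25- cells, and Foxp3-fusion cells were 3.30-fold below Foxp3-null cells. Its deposited values in Foxp3-fusion and GFP- CD25- cells were identical. The other Ccr2 probe set above the floor read 4.89 log2 in Foxp3-fusion cells, 4.61 in Foxp3-null, 4.50 in GFP- CD25+ and 4.42 in GFP- CD25- cells. Its span was 0.46 log2. There Foxp3-null cells were below Foxp3-fusion cells, and 0.19 log2 above GFP- CD25- and 0.12 log2 above GFP- CD25+ cells. With the median over the 4 Ccr2 probe sets, Foxp3-fusion cells lay at least 0.13 log2 above Foxp3-null cells, the opposite sign. That is a bound, since the Foxp3-null median was under the floor. Of the dendritic cell and macrophage markers above the floor, Csf1r and Adgre1 were also highest on the Foxp3-null array, at 5.50 and 5.21 log2, whereas Zbtb46 read 4.46 to 4.52 log2 on the 4 arrays. The summed signal of those 10 markers was 106 units in Foxp3-fusion cells, 157 in Foxp3-null cells, 114 in GFP- CD25+ cells and 107 in GFP- CD25- cells, with 3 of 10 above the floor on any array. Itgax, Itgam, Lyz2 and Cd68 were under the floor on all 4 arrays, and the part of such cells in the Ccr2 signal was not tested.

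Cxcr6 encodes the CXCL16 receptor, known from NKT cells and tissue-resident T cells. It read 3.88 log2, under the floor, in Foxp3-fusion cells, 5.26 in Foxp3-null cells, 4.99 in GFP- CD25+ cells and 5.11 in GFP- CD25- cells. Foxp3-fusion cells lay at least 2.37-fold below Foxp3-null cells and at least 2.13-fold below GFP- CD25- cells, while the last 3 populations were under 2-fold apart. Median centring lowered the bound against GFP- CD25- cells to -0.55 log2, and a floor 1 log2 unit higher gave -0.09 log2 there and -0.24 log2 against Foxp3-null cells, all under 2-fold. Its second probe set was under the floor on all arrays. Of 5 measured NK and NKT cell markers, 1 was above the floor in Foxp3-fusion cells, 2 in Foxp3-null cells, 1 in GFP- CD25+ cells and 4 in GFP- CD25- cells. Zbtb16, the NKT transcription factor gene, and Klrd1 were above it in GFP- CD25- cells alone, at 6.39 and 6.32 log2. Klra1 was under the floor in Foxp3-fusion cells alone, like Cxcr6, and read 5.06 log2 in Foxp3-null cells, 4.51 in GFP- CD25+ cells and 4.36 in GFP- CD25- cells. Nkg7 read 5.88 log2 in Foxp3-fusion cells, 6.25 in Foxp3-null cells and 4.95 in GFP- CD25- cells, and was under the floor in GFP- CD25+ cells. Ncr1 was under the floor on all arrays. The summed signal of the 5 was 93.6 units in Foxp3-fusion cells, 133 in Foxp3-null cells, 53.8 in GFP- CD25+ cells and 219.7 in GFP- CD25- cells, and the part of such cells in the Cxcr6 signal was not tested.

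Cxcr4 encodes the CXCL12 receptor, which holds immature thymocytes in the cortex. Its single probe set read 3.86, 3.58, 3.66 and 3.38 log2 in Foxp3-fusion, Foxp3-null, GFP- CD25+ and GFP- CD25- cells. Ccr4, which encodes a receptor for CCL17 and CCL22, lay between 2.14 and 2.18 log2, and Ccr8, which encodes the CCL1 receptor, between 2.12 and 2.17. Values under the floor set no order and do not show that these receptors are absent, since 1 probe set each was read.

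The members can be read against the share of all genes past 2-fold in the same comparison, although a gene above the floor only in the population where it is high had to differ. For Foxp3-fusion over GFP- CD25- cells, Ccr6, Ccr7 and Cxcr5 were at least 2-fold higher, 3 of 7 measured, against 9.83% of 8324 genes. Ccr9 and Cxcr6 were lower, 2 of 7, against 5.19%. The median difference of the 7 was 0.91 log2, against -0.05 over all genes. As deposited, Cxcr3 joined the higher genes, 4 of 7, against 14.6% of all genes, and 2 were lower, against 3.64%.

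For Foxp3-null over GFP- CD25- cells, Ccr2, Ccr6 and Ccr7 were higher, 3 of 6 measured, against 10.7% of all 8524 genes. Ccr9 and Cxcr3 were lower, 2 of 6, against 7.34%. The median of the 6 was 0.63 log2, and 0.19 over all genes. As deposited 2 were higher, against 5.45%, and 2 lower, against 11.4%. Ccr6, Ccr7 and Ccr9 moved the same way as in Foxp3-fusion cells, Ccr7 under 2-fold as deposited. Both comparisons use the same GFP- CD25- array.

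Foxp3-fusion and Foxp3-null cells differ in genotype, backcross and array, which cannot be told apart. For Foxp3-fusion over Foxp3-null cells, Cxcr3 and Cxcr5 were higher, 2 of 7 measured, against 9.16% of 8679 genes. Ccr2, Ccr9 and Cxcr6 were lower, 3 of 7, against 9.41%. The median of the 7 was -0.09 log2, and -0.14 over all genes. On the deposited scale Ccr6 joined the higher genes and Ccr9 left the lower ones. The split was then 3 higher, against 19.2% of all genes, and 2 lower, against 4.07%. The plot of members among all genes places Cxcr3 in the upper tail of this comparison and Ccr9 in the lower tail of that against GFP- CD25- cells.

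**Figure D3:**
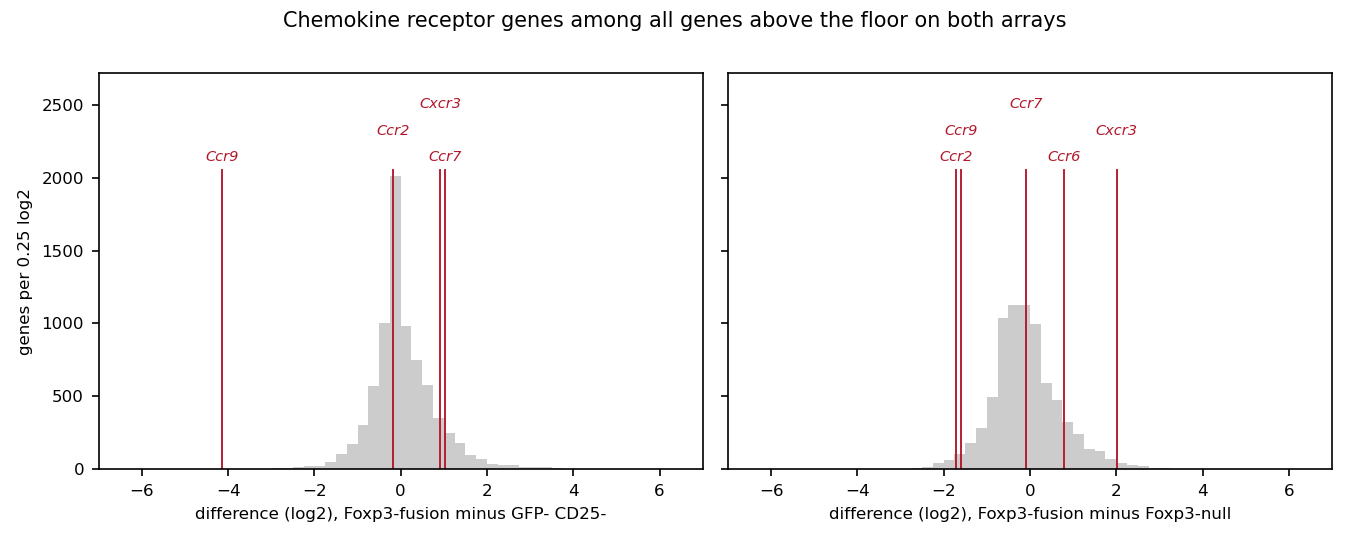
Number of genes per 0.25 log2 of difference, for genes above the floor on both arrays, Foxp3-fusion minus GFP- CD25- (left) and Foxp3-fusion minus Foxp3-null (right); red lines mark the chemokine receptor genes measured on both sides. Ccr9 stands at -4.14 log2 on the left, and Cxcr3 at 2.01 log2 on the right.

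Among GFP- cells, CD25+ over CD25-, Ccr6 was higher, 1 of 6 measured, against 4.04% of 8315 genes, and Ccr9 was lower, 1 of 6, against 4.39%. As deposited the same counts stood against 2.78% and 7.01%. Cxcr3 was 1.80-fold lower and Ccr2 1.46-fold higher, both under 2-fold. For Foxp3-fusion over GFP- CD25+ cells, Ccr6, Ccr7, Cxcr3 and Cxcr5 were higher, 4 of 7, against 11.4% of 8511 genes, and Ccr9 was lower, 1 of 7, against 8.05%. The same counts as deposited stood against 20.6% and 3.4%. For Foxp3-null over GFP- CD25+ cells, Ccr2, Ccr6 and Ccr7 passed 2-fold upward, 3 of 6, against 8.39% of 8519 genes, and 0 were lower, against 7.22%. Ccr2 was 2.01-fold higher there and 1.80-fold as deposited, which left 2 higher, against 6.18%, and 0 lower, against 8.04%.

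**Figure D4:**
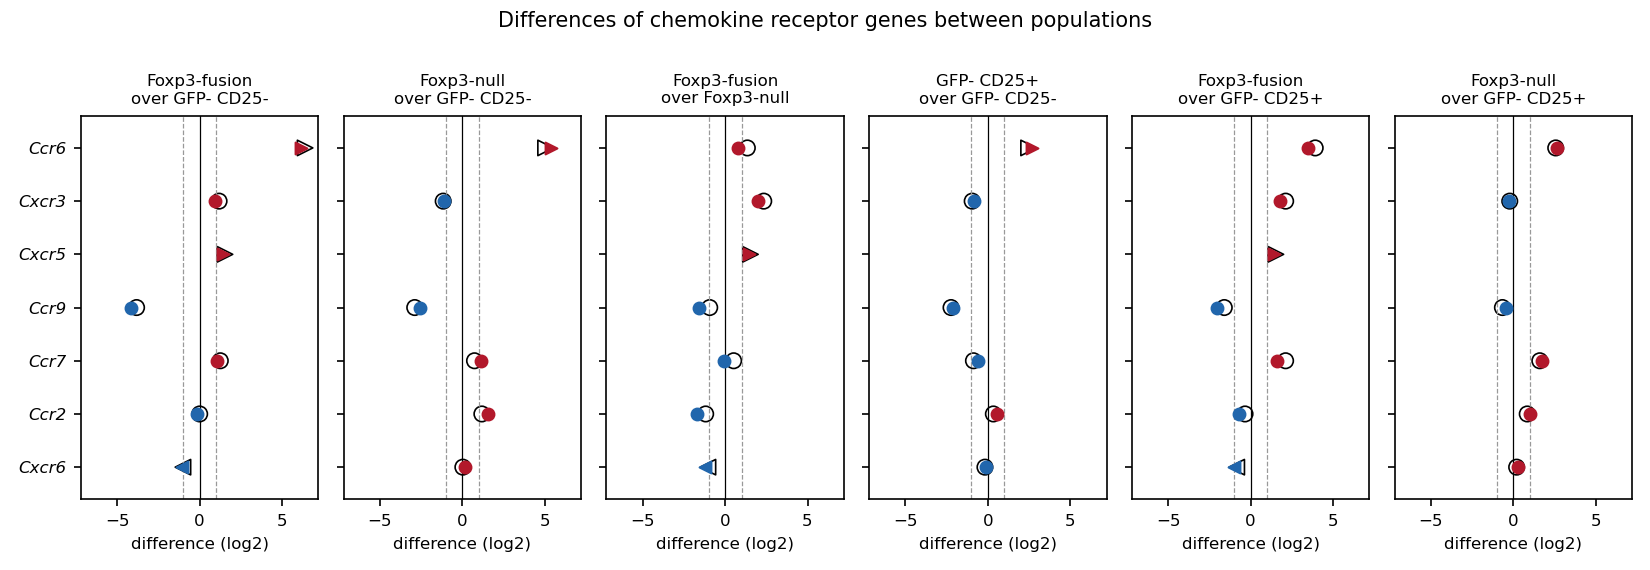
Difference (log2) of the 7 chemokine receptor genes above the floor on at least 1 array, in the 6 comparisons named above the panels; filled symbols are quantile normalized (red higher, blue lower), open symbols deposited values, triangles lower bounds, and dashed lines 2-fold. Ccr6 lies to the right in every panel and Ccr9 to the left, the smallest Ccr9 difference being -0.45 log2 for Foxp3-null over GFP- CD25+ cells.

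The genes whose 4-array pattern was most like that of a member were found as the 3 smallest distances among 8879 other genes, each profile centred on its mean. Cd83, an activation marker, lay nearest to Ccr6 at a distance of 0.72 log2, followed by Il2ra at 1.06, a gene used in the sort, and Gsta4 at 1.33. Nearest to Ccr9 were Enc1 at 0.34, the transcriptional inhibitor gene Id2 at 0.55 and the semaphorin gene Sema4a at 0.81. Rgs10, which encodes a regulator of G protein signalling, followed Ccr7 at 0.04. Fcho2, an endocytosis gene, was nearest to Cxcr3 at 0.03. BC052040 and the mitotic gene Hmmr were nearest to Ccr2 at 0.10 and 0.13. Sbk1 was nearest to Cxcr6 at 0.09 and Il1rap to Cxcr5 at 0.01, where 3 of the 4 values are the floor. With 4 arrays many genes share a pattern.

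In the genome, 6 of the 10 genes are on chromosome 9 (GRCm38.p6 annotation). Ccr9 and Cxcr6 are separated by 1 protein-coding gene, Fyco1, and Cxcr6 and Ccr2 by 4, among them Ccr1 and Ccr3. After normalization, the main probe sets of Ccr9, Cxcr6 and Ccr2 were all lowest in Foxp3-fusion cells, and these are the 3 members called lower there than in Foxp3-null cells. The call of Ccr9 is lost on the deposited scale, and that of Ccr2 rests on 1 probe set. For Ccr2, Foxp3-fusion over GFP- CD25- cells was -0.17 log2, and 0 as deposited. Its other probe set above the floor was highest in Foxp3-fusion cells. The main probe sets of the 3 genes differed in where they were highest, Ccr9 in GFP- CD25- cells, Cxcr6 and Ccr2 in Foxp3-null cells. Of 11 other chemokine and atypical receptor genes measured, 4 were above the floor on any array (Ccr1, Cx3cr1, Ackr2 and Ackr4), none over 5.33 log2, and 0 were 2-fold apart in any of the 6 comparisons.

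Of 29 chemokine ligand genes measured, 8 were above the floor on any array. Ccl5, a ligand of receptors for inflammatory chemokines, read 6.61 log2 in Foxp3-fusion cells, 4.15 in Foxp3-null cells, 4.74 in GFP- CD25+ cells and 4.13 in GFP- CD25- cells. Against Foxp3-null cells it was 5.51-fold higher in Foxp3-fusion cells. Cxcl1, a ligand of CXCR2, went the other way, at 6.72 log2 in Foxp3-fusion cells against 8.31 in Foxp3-null cells. Its difference of -1.59 log2 was just under 2-fold as deposited, at -0.995 log2. Ccl1, the CCR8 ligand, read 5.39 log2 in Foxp3-null cells and 4.20 in GFP- CD25- cells, 2.29-fold apart. Cxcl10, a CXCR3 ligand, read 5.05 to 5.62 log2 over the 4 populations. Ccl20 and Ccl25, the ligands of CCR6 and CCR9, were under the floor on all 4 arrays.

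Genes for the signalling steps below these receptors went both ways. Of 30 compared for Foxp3-fusion over GFP- CD25- cells, 4 passed 2-fold upward and 7 downward against 9.83% and 5.19% of all genes. As deposited 5 and 4 did, against 14.6% and 3.64%. After normalization the list had a median of -0.25 log2 against -0.05 over all genes. The largest difference was in Rgs1, which encodes a GTPase activator that shortens chemokine receptor signals. It read 11.54 log2 in Foxp3-fusion cells, 9.43 in Foxp3-null cells, 8.89 in GFP- CD25+ cells and 5.11 in GFP- CD25- cells. This is the order of Ccr6. Rgs16 read 8.88, 9.87, 10.58 and 7.01 log2 in the same populations, highest in GFP- CD25+ cells. Gpsm3, a regulator of Gi signalling, was 3.30-fold lower in Foxp3-fusion than in GFP- CD25- cells, and Arrb2, a beta-arrestin gene, 2.91-fold lower.

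For Foxp3-fusion over Foxp3-null cells 3 of 30 signalling genes passed 2-fold upward and 5 downward, against 9.16% and 9.41% of all genes. With deposited values the counts were 6 and 0, against 19.2% and 4.07%, so the lower calls rest on the scaling. Gnb2, a G protein beta subunit gene, was 4.07-fold higher and Gnai3, an inhibitory alpha subunit gene, 2.25-fold higher. Rac2, a GTPase gene needed for T cell migration, read 8.30 log2 in Foxp3-fusion cells, 9.04 in Foxp3-null cells, 5.80 in GFP- CD25+ cells and 8.30 in GFP- CD25- cells. It stood out by its low reading in GFP- CD25+ cells, 5.66-fold below GFP- CD25- cells. Ccr7 was lowest in the same population.

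Of 11 other trafficking receptor genes compared for Foxp3-fusion over GFP- CD25- cells, 2 passed 2-fold upward, Ptger2 and Ptger4, against 9.83% of all genes, and 0 downward, against 5.19%. As deposited S1pr4 joined them at 1.12 log2, so that 3 passed upward, against 14.6%, and 0 downward, against 3.64%. The prostaglandin receptor gene Ptger2 was 12.4-fold higher in GFP- CD25+ than in GFP- CD25- cells. It was 15.7-fold higher in Foxp3-fusion and 17.5-fold higher in Foxp3-null than in GFP- CD25- cells. S1pr1, the receptor gene for thymic exit, read 6.43 log2 in Foxp3-fusion cells, 6.95 in Foxp3-null cells, 6.81 in GFP- CD25+ cells and 6.57 in GFP- CD25- cells, under 2-fold apart throughout. Relative to GFP- CD25+ cells, Selplg, which encodes a selectin ligand, was 2.30-fold higher in Foxp3-fusion cells and 3.33-fold higher in Foxp3-null cells. Gpr18 was 2.79-fold and 2.86-fold higher in the same comparisons.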

How the data were processed

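RNA of 4 sorted thymocyte populations was measured, 1 array each. Per the labels' protocols, it was column-purified, amplified in 2 rounds and hybridised as biotin-labelled cRNA. The deposited values are log2 signals, 1 per probe set and array; the log base was inferred from their range. The authors' summarisation and normalization are not given in the sources used here. Groups were taken from sample titles, since the description of the Foxp3-null sample repeats that of the other mice.

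Of 45101 probe sets, 64 controls were left out. Platform annotation gave 34945 probe sets 1 gene, 932 several and 9160 none; 34741 matched RefSeq identifiers. The probe set of highest average signal over the 4 columns stood for its gene. Because 90th percentiles differed by more than 0.2 log2, values were quantile normalized. For the floor, the 90th percentile of 100 probe sets (58 genes silent in T cells) was taken on each array and the highest kept, 4.02 log2 (4.11 as deposited). No test was made. Scripts (Python 3.11.15, pandas 2.3.3) were tested on simulated data. Alternatives were other scalings, floors, probe set rules and fold thresholds. Summed marker signals are sums of linear signals.

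The members and lists were chosen with earlier results of these data known. All 10 members are named; genes of related lists are named when 2-fold apart or when a ligand of a member, sort genes as checks, and the 3 genes nearest in pattern. Outside that rule, S1pr1, the other receptors above the floor and the markers of other cells named are given for context, chosen after their values were seen. Marker lists of CD8, gamma delta T, epithelial and erythroid cells had 3 of 5, 1 of 3, 2 of 7 and 0 of 2 measured genes above the floor.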

Additional observations from a re-analysis of the deposited data

How the results depend on the processing

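With 1 array per population no replicate could be left out. No paired analysis was possible because each group has 1 array. Of 96 counts of chemokine receptor genes under the alternatives, 79 were within 1.5 times the count reported. The other 17 follow. At 3-fold, 1 gene was higher and 1 lower for Foxp3-fusion and for Foxp3-null over GFP- CD25- cells, and 1 was higher for Foxp3-fusion over Foxp3-null cells. At 1.5-fold, 3 were lower for GFP- CD25+ over GFP- CD25- and for Foxp3-fusion over GFP- CD25+ cells. Median centring, and also a floor 1 log2 unit higher, left 1 lower for Foxp3-fusion and for Foxp3-null over GFP- CD25- cells and 1 higher for Foxp3-fusion over Foxp3-null cells. Taking the median of each gene's probe sets gave 1 lower for Foxp3-fusion over GFP- CD25- cells and 0 lower for Foxp3-fusion over Foxp3-null cells. Without probe sets that may match several transcripts, Ccr6 had no value, and 0 were higher for GFP- CD25+ over GFP- CD25- cells. With no floor, 2 were lower for Foxp3-fusion over GFP- CD25+ cells. Of 217 single differences, 194 lay within 1.5-fold of the value reported, 22 moved further and 1 that was past 2-fold changed sign. That was Ccr2 for Foxp3-fusion over Foxp3-null cells, at least 0.13 log2 with the median over its probe sets. Of its 4 probe sets 2 were under the floor on every array, and the Foxp3-null median was taken at the floor. Counting differences of any size, 7 of the 217 values changed sign or fell to 0, this Ccr2 difference included. They belong to Ccr2, Ccr7, Ccr9 and Cxcr6. Over the 6 comparisons, median centring and the higher floor each ended calls of Cxcr3, Cxcr5 and Cxcr6 and of no other member.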
